A study of Mus musculus with 30 samples.

Results

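The 6 transcription factor genes described here, Zeb1, Zeb2, Snai1, Snai2, Twist1 and Prrx1, are the best known inducers of the epithelial to mesenchymal transition (EMT), the change in which epithelial cells lose their junctions and take on the shape and motility of mesenchymal cells. They were chosen by name, with earlier results of these data known. Each was found through 1 probe annotated to that symbol alone, so 6 of the 22800 probes of the array and 6 of the 9919 genes with a tested probe are members. All 6 probes passed the filter on missing values. The samples were 15 RNA extracts of mammary carcinomas that arose in c-Myc transgenic mice, each hybridised against 1 common reference RNA on 2 two-colour arrays with the channels exchanged. The labels give no strain, age, promoter of the transgene or treatment, and they do not say what the reference RNA was made from. Extracts are named by a number and a letter whose meaning is not stated: number 579 stands on 5 extracts, number 546 on 2 and 8 further numbers on 1 each. The labels describe 25 arrays under EMT and 5 under tumour progression, with 550-A and 561-B under tumour progression on both arrays and 595-A under each description once. Whether each extract is a separate animal is not stated, so p-values here measure only the spread between extracts, or for the F-test that between paired arrays of 1 extract, and either may be technical.

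EMT factors are DNA-binding repressors and activators that the embryo uses in gastrulation and in the neural crest, and that carcinoma cells can switch on again. Zeb1 and Zeb2 are zinc finger proteins, and Snai1 (Snail) and Snai2 (Slug) carry a cluster of zinc fingers; both families bind E-box sequences in the control regions of E-cadherin and other epithelial genes and repress them. Twist1 is a basic helix-loop-helix protein of mesoderm, and Prrx1 is a paired-type homeodomain protein of limb and other mesenchyme. Fibroblasts and other stromal cells express several of them as well, so in a piece of tumour their RNA can come from more than one kind of cell.

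The E-box core bound by the zinc finger members is shown in promoters of 3 junction genes that stood high in these extracts (values below). It is shown because the zinc finger factors are known to repress epithelial genes through E-boxes. Whether they act through the runs printed here was not tested. Each run is the 250 bases before a RefSeq transcription start in assembly GRCm38.p6, written on the gene's own strand, with capitals marking CAGGTG or CACCTG. The pair are one site read on either strand, so a match was counted once and both strands were covered.
Epcam (chr17:87635729-87635978, plus strand): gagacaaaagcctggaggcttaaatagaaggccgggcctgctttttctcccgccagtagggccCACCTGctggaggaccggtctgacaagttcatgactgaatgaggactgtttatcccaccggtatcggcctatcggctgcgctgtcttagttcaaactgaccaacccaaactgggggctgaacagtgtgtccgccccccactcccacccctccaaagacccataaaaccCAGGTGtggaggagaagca
Cldn7, its second listed start (chr11:69965171-69965420, plus strand): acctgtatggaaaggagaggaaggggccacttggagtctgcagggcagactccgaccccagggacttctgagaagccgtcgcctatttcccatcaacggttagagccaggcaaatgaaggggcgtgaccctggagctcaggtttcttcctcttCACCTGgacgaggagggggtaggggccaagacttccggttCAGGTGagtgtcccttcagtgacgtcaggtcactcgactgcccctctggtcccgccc
Ocln, the first of 2 listed starts (chr13:100552499-100552748, minus strand): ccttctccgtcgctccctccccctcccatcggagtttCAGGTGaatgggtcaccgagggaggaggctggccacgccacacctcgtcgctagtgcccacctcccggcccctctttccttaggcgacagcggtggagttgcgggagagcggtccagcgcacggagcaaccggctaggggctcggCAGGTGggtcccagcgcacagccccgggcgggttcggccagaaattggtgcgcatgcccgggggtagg
Epcam, the epithelial adhesion protein, held matches beginning at -187 and -19 from the start of transcription. Cldn7, a tight junction claudin, held them at -97 and -57, and Ocln (occludin) at -213 and -68; the other listed start of Cldn7 and of Ocln held none. Of 28 promoters listed for 21 genes of an epithelial junction list, measured here or not, 17 held at least 1 match (60.7%), against 17.2% of all 32851 promoters of the table. Some windows of 1 gene overlap, as for Crb3, and by gene the shares were 71.4% and 19.4%. The list, which also holds keratin and other epithelial genes, was drawn up as targets of these factors. Its share is therefore not that of a neutral set. The GC content of the junction promoters was also higher, with a median of 60.6% against 52.4%. A match is a run of letters, not a shown binding site.

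Of the factors' own promoters, 7 were listed for 4 genes, and only that of Snai1 held the core. It is shown because Snail proteins are known to bind their own gene's control region.
Snai1 (chr2:167537945-167538194, plus strand): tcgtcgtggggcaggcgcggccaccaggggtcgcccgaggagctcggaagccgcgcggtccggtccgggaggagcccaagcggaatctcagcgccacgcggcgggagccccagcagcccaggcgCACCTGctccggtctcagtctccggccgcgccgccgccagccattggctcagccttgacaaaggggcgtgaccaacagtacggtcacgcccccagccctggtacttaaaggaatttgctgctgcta
Its single match began at -126. The windows listed for Prrx1, Twist1 and Zeb2 held none of these letters.

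Values are log2 ratios between extract and reference. No label says which channel was the numerator, so a positive value means the side on which the Myc probe lay and a negative value the opposite side. With a Myc transgene in every tumour, a value on the Myc side probably means more RNA in the extract than in the reference, and all words for high and low below would change places if the ratio ran the other way. Myc itself stood at 3.16 ± 0.11 (SE, n = 15 extracts) and on one side in 15 of 15. Arrays held from 13434 to 21991 measured probes. Intensities were not used here, and the number of arrays limits the precision. The thinnest extracts were 546-A, where 4021 of 12888 tested probes rested on 1 array, and 548-A, with 3000.

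Against the reference, all 6 factors had mean ratios on the opposite side, and 5 of the 6 passed the test. Prrx1 and Zeb1 lay farthest, at 8.93-fold and 5.87-fold, followed by Snai2 at 2.63-fold, Zeb2 at 1.70-fold and Twist1 at 1.62-fold. Snai1, at 1.37-fold, did not pass. The threshold was a limma adjusted p under 0.05, which 47.2% of all probes passed. On the opposite side 16.9% of all probes passed it, those on the Myc side made 30.4%, and the median probe stood at 0.13. In a whole tumour a low ratio can mean fewer cells that express a gene or less of its RNA in each cell. It can also mean that the reference, whose make-up is not stated, holds much of that RNA. These cannot be told apart.

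Prrx1 had its lowest extract mean at -4.94 in 548-A, a median of -3.24, and its highest at -1.26 in 546-A. All 15 extracts lay on the opposite side, with none near 0. The mean was -3.16 ± 0.27 (SE, n = 15; limma adjusted p = 5.49e-08). Its probe gave -3.80 ± 1.31 (SD, n = 14) with the extract in channel 1 and -2.63 ± 1.06 (SD, n = 15) with it in channel 2, on the opposite side on every array. The channel 1 value was missing in 579-F, whose Prrx1 level rests on 1 array.

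Zeb1, the zinc finger repressor of E-cadherin that is also a target of the miR-200 microRNAs, ran from -4.00 in 548-A through a median of -2.82 to -0.58 in 546-A. It too was on the opposite side in 15 of 15 extracts and on every array. The mean was -2.55 ± 0.23 (SE, n = 15; limma adjusted p = 1.14e-07). The arrays of both channel orders gave close means, -2.67 ± 1.16 (SD, n = 15) with the extract in channel 1 and -2.32 ± 0.94 (SD, n = 14) in channel 2, and channel 1 was the lower of the pair in 7 of 14 extracts. The lowest extract, 548-A, rests on 1 array. On 8 of 29 arrays (27.6%) the Zeb1 ratio was, to 3 decimals, what dividing one whole number by another gives with neither above 20, a form that ratios of few units of signal would take. The median tested probe had 17.2% of its values in that form, and what produced them was not tested.

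Zeb2, the paralogue of Zeb1, was nearer the reference and varied least. Its extract means ran from -1.54 in 579-D through a median of -0.84 to 0.12 in 550-A, with 13 of 15 on the opposite side; the exceptions were 550-A and 546-A, both within 0.12 of 0, and the second rests on 1 array. The mean was -0.77 ± 0.13 (SE, n = 15; limma adjusted p = 0.000101). With the extract in channel 1 Zeb2 gave -1.10 ± 0.63 (SD, n = 15) and with it in channel 2 -0.47 ± 0.55 (SD, n = 14).

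The Snail genes differed from each other in size and certainty. Snai2 ran from -3.07 in 548-A through a median of -1.41 to -0.22 in 546-B, with 15 of 15 extract means on the opposite side and a mean of -1.40 ± 0.17 (SE, n = 15; limma adjusted p = 4.49e-06). Its level depended on the channel order in every extract: channel 1 was the lower of the pair in 15 of 15, at -2.23 ± 0.63 against -0.56 ± 0.96 in channel 2 (SD, n = 15 each). The median over all probes of an array was also lower with the extract in channel 1 in every extract. Its gap was narrowest in 567-B (0.06 against 0.062) and widest in 579-F (-0.844 against 1.135). How much of the gap of Snai2 this makes was not tested. On 5 of the 15 arrays with the extract in channel 2 Snai2 lay on the Myc side. Snai1 ran from -2.38 in 548-A through a median of -0.53 to 1.70 in 546-A, and 13 of 15 extracts were on the opposite side. Its mean was -0.46 ± 0.23 (SE, n = 15; limma adjusted p = 0.114). By extract mean only 546-A and 550-A, at 1.70 and 0.92, stood on the Myc side, and on both the paired arrays gave the same side. With the extract in channel 1 Snai1 gave -0.86 ± 1.29 (SD, n = 15), with 11 of 15 arrays on the opposite side. In channel 2 it gave -0.06 ± 1.27 (SD, n = 15), with 7 of 15 arrays on the Myc side. In 579-F the paired arrays gave -2.478 and 1.415. Snai1 passed on the opposite side without 546-A (-0.61, limma adjusted p = 0.0149) and after array medians were subtracted (-0.55, limma adjusted p = 0.0476).

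Twist1 ran from -2.15 in 567-B through a median of -0.77 to 0.76 in 546-A. The extracts 546-A, 540-B, 550-A and 546-B were on the Myc side, at 0.76, 0.31, 0.21 and 0.13, and the other 11 on the opposite side. The mean was -0.70 ± 0.20 (SE, n = 15; limma adjusted p = 0.00689). The side turned with the channel order: Twist1 averaged -1.60 ± 1.06 with the extract in channel 1, where 14 of 15 arrays were on the opposite side, and 0.20 ± 0.84 in channel 2, where 9 of 15 were on the Myc side (SD, n = 15 each). The gap within pairs averaged -1.80, wider than the mean itself, so the direction of Twist1 rests on the averaging of the paired arrays. Part of this gap may be shared by the whole array, since array medians were lower in channel 1 too, which was not tested. The plot of the mean of each factor shows both channel orders beside the average.

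**Figure D1:**
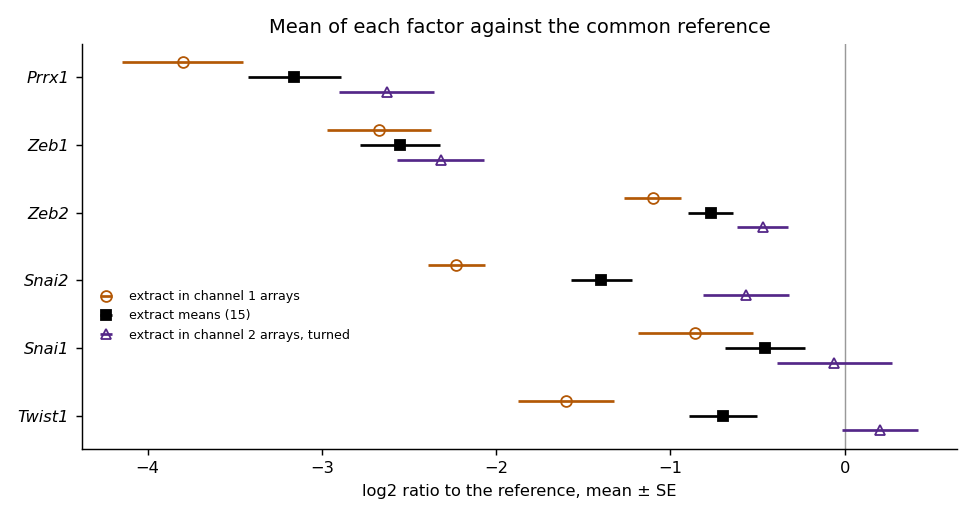
Mean log2 ratio to the reference (x axis) of each factor (rows), with bars of 1 SE; squares are the 15 extract means, circles the arrays with the extract in channel 1 and triangles those with it in channel 2 after turning. Prrx1 and Zeb1 lie on the opposite side in both orders, and Twist1 stands at -1.60 in channel 1 and 0.20 in channel 2.

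By extract mean, which the factors take from the same arrays, the ends of the order of extracts were much alike for the 6 factors. Other extracts moved more: 546-B ranked 1 for Snai2 and 9 for Snai1, and 567-B 6 for Snai1 and 15 for Twist1. Ranked from the Myc side, 546-A had a mean rank of 1.33 over the factors and was first for Prrx1, Zeb1, Snai1 and Twist1; 550-A followed at 2.17, 540-B at 3.67 and 546-B at 3.83. At the other end stood 548-A at 13.83, 579-D at 13.5 and 579-B at 12.5. The extracts at the very ends, 546-A and 548-A, were also the thinnest ones named above. Values in the form of small whole-number ratios made 48.5% and 67.8% of those on the arrays of 546-A. For 548-A they made 47.7% and 38.7%, and on the arrays of the other extracts 18.4% to 43.7%. The part of this in the order was not tested. The array noise, taken as 1 SD of a difference between extract means as the paired arrays give it, was wide beside the steps in this order. Of 14 gaps between neighbouring extracts, none exceeded the noise of a difference for Prrx1, Zeb1, Zeb2, Snai1 or Twist1, and 1 did for Snai2 (0.86, between 548-A and 579-D, against a noise of 0.58). Gaps between neighbours in a ranking are small by construction. The count thus bears on the order of neighbours and not on the spread over all extracts, for which the F-test below was run.

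**Figure D2:**
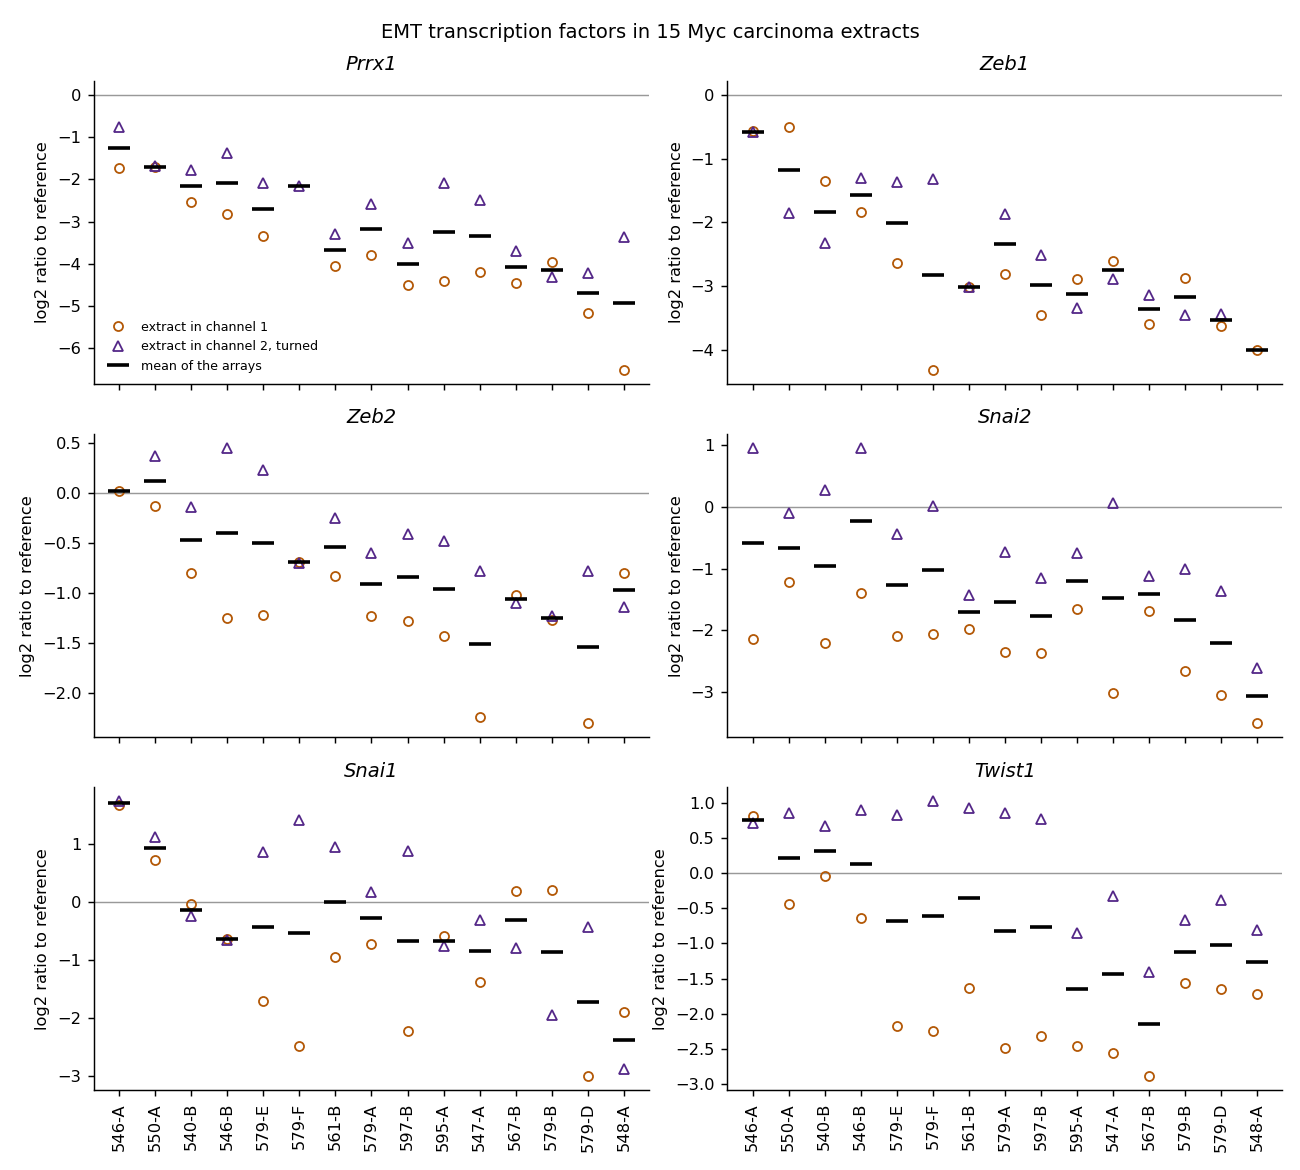
Log2 ratio to the reference (y axis) of each factor in each extract (x axis, ordered by mean rank over the factors); circles are the array with the extract in channel 1, triangles the turned array with it in channel 2, and lines their mean. Extracts 546-A and 550-A stand at the high end and 579-D and 548-A at the low end, while the paired arrays of Snai2 and Twist1 lie apart in nearly every extract.

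Whether extracts differed by more than array noise was asked with limma's F-test over the 30 single arrays, with a term for the channel order. Prrx1 passed (F = 6.41, adjusted p = 0.012), and it was the only one of the 6. Over all probes 6.73% passed. The adjusted p by this F-test was 0.148 for Snai2, 0.149 for Zeb1, 0.21 for Twist1, 0.262 for Zeb2 and 0.52 for Snai1. The call of Prrx1 was lost without 546-A (limma adjusted p = 0.0518), and without the term for channel order (limma adjusted p = 0.328), and Zeb1 passed without 579-F (limma adjusted p = 0.0208), where its paired arrays gave -4.32 and -1.32. Between the paired arrays of an extract, the correlation over extracts was highest for Prrx1 (Pearson r = 0.75, Spearman's rho = 0.78, n = 14; permutation p adjusted over the 6 factors 0.0112 and 0.0103). It was 0.53 for Snai2, 0.46 for Zeb1, 0.41 for Twist1, 0.31 for Zeb2 and 0.11 for Snai1, none of which passed by permutation (adjusted p from 0.134 to 0.70). Without the 2 extracts farthest from the median the r of Prrx1 was 0.83 and that of Snai1 was -0.19.

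Number 579, the one that stands on most extracts, was set against the 10 extracts of other numbers. Prrx1 stood at -3.19, -4.14, -4.69, -2.71 and -2.16 in 579-A, 579-B, 579-D, 579-E and 579-F, and averaged -3.38 ± 1.03 there (SD, n = 5) against -3.05 ± 1.19 in the others (SD, n = 10). The groups overlapped over nearly their whole range. Zeb1 stood at -2.34, -3.17, -3.53, -2.01 and -2.82 in the same extracts of 579, which averaged -2.77 ± 0.62, against -2.44 ± 1.09 in the others. Zeb2 averaged -0.98 ± 0.42 in 579 and -0.66 ± 0.50 in the others, and Snai1 -0.77 ± 0.58 in 579 and -0.30 ± 1.09 in the others. Snai2 averaged -1.57 ± 0.46 in 579 and -1.31 ± 0.80 in the others. Twist1 averaged -0.85 ± 0.22 in 579, where all 5 extracts were negative, and -0.62 ± 0.98 in the others, which held the 4 extracts on the Myc side. Thus each factor averaged lower in 579, by less than 1 SD of the other extracts. By limma none of the 6 factors passed (adjusted p = 1 for each), and 0% of all probes did; 460 of 12888 had an unadjusted p under 0.05. The difference was -0.33 for Prrx1 (95% interval -1.55 to 0.89), -0.33 for Zeb1 (-1.38 to 0.71), -0.32 for Zeb2 (-0.89 to 0.26), -0.46 for Snai1 (-1.50 to 0.58), -0.27 for Snai2 (-1.06 to 0.52) and -0.23 for Twist1 (-1.12 to 0.67). Cdh1 (E-cadherin), the best known target of these repressors, ran from 0.46 to 1.55 in 579 and from 2.29 to 5.41 in the others. Its difference of -2.29 did not pass over all probes (limma adjusted p = 0.61), and Cdh1 did not pass limma's F-test between extracts (adjusted p = 0.12). How many other probes separate the groups in this way was not counted, so the separation cannot be read as particular to Cdh1.

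The extracts described under tumour progression were set against the 12 described under EMT on both arrays. Prrx1 stood at -1.70 in 550-A and -3.68 in 561-B under tumour progression, against -3.23 ± 1.17 under EMT (SD, n = 12, here and below), a difference of 0.54 (95% interval -1.22 to 2.30). Zeb1 stood at -1.18 and -3.02 in the same extracts, against -2.58 ± 0.96, a difference of 0.48 (-1.01 to 1.97). For both genes 550-A was at the high end of all extracts and 561-B among the others. Zeb2 stood at 0.12 and -0.54, against -0.85 ± 0.47, a difference of 0.63 (-0.16 to 1.43). Snai1 showed the widest difference, 1.05 (-0.38 to 2.48), with 0.92 and -0.003 against -0.59 ± 0.97. Snai2 stood at -0.66 and -1.70, against -1.45 ± 0.75, a difference of 0.27 (-0.89 to 1.42). Twist1 stood at 0.21 and -0.35, against -0.72 ± 0.80, a difference of 0.65 (-0.54 to 1.85). Thus 550-A was higher than 561-B for every factor, and the gap between them exceeded the difference between the descriptions for Prrx1, Zeb1, Snai2 and Zeb2. No factor passed by limma (adjusted p = 1 for each). Over all probes 0.00776% passed, which is 1 probe, lower under tumour progression, and 525 had an unadjusted p under 0.05. Without 550-A the difference was -0.44 for Zeb1, -0.25 for Snai2 and -0.45 for Prrx1, so the direction of these differences rests on that extract.

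The wider pathway was described from lists of named genes, 1 probe each. Over all 9919 tested genes 3334 passed toward the Myc side, 1473 passed away from it and 5112 did not pass, with a median mean ratio of 0.17. Among 17 other transcription factors linked to EMT, 7 passed on the opposite side and 4 on the other, with a median of -0.16. The gene of Hmga2, an architectural protein of chromatin that induces Snail and Twist genes, was lowest at -4.39 ± 0.34, and Twist2, the paralogue of Twist1, stood at -1.56 ± 0.21. Sox4 and Sox9, which are expressed in epithelial progenitors as well, lay on the Myc side at 1.54 ± 0.16 and 1.33 ± 0.16 (SE, n = 15 for each). The median over the 6 factors themselves was -1.08.

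Of 21 corepressors and partners of the factors 10 passed on the Myc side and 4 on the other, with a median of 0.10; after array medians were subtracted the counts were 9 and 6 and the median 0.00. Mta3, a subunit of a repressor complex that acts on Snai1, stood at 1.12 ± 0.16, and Kdm1a, the histone demethylase that Snai1 recruits, at 1.05 ± 0.11. Id1 and Id3, which bind helix-loop-helix proteins and block them, stood at -2.10 ± 0.19 and -1.55 ± 0.15 (SE, n = 15). Of 23 genes for upstream signals and protein turnover 5 passed on the Myc side and 6 on the other, and the median of 0.06 became -0.03 once each array's median was taken off. Notch1 (1.70 ± 0.22) and the ubiquitin ligase gene Fbxw7 (1.20 ± 0.14) were highest. Btrc, whose ligase marks Snai1 for degradation, was at -1.01 ± 0.17, and the TGF-beta mediator Smad3 at -0.78 ± 0.10.

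Genes of the epithelial state, the side that EMT factors repress, lay on the Myc side. Of 13 epithelial regulators 9 passed there and 1, Klf4 at -0.67 ± 0.26, on the opposite side, with a median of 0.89; Elf5 and Ehf, ETS factors of glandular epithelium, stood at 4.92 ± 0.31 and 4.70 ± 0.23. Of 25 measured genes of the epithelial junction list 21 passed on the Myc side and none on the other, with a median of 1.51. Not all of them encode junction proteins, since the list also holds keratins, Muc1, Rab25, Prss8, St14 and Lama5. Cldn3 stood at 4.76 ± 0.21 and Cldn7 at 3.43 ± 0.20. Epcam stood at 2.90 ± 0.10, Cdh1 at 2.56 ± 0.33 and Ocln at 2.10 ± 0.27, and all 15 extracts were positive for each. The 3 promoters printed above belong to genes of this group. Rab25, at 0.06 ± 0.14, did not pass and its promoter held 2 matches, and Cldn3, the highest, held none in the window listed.

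Of 23 mesenchymal genes that EMT turns on, 15 passed on the opposite side and 1 on the other, with a median of -0.93. S100a4, a calcium-binding protein of motile cells, stood at -4.27 ± 0.20 by the probe used and at -0.74 by its other probe. The collagen cross-linker Lox stood at -3.45 ± 0.30, the intermediate filament vimentin (Vim) at -3.22 ± 0.22, N-cadherin (Cdh2) at -2.34 ± 0.26 and fibronectin (Fn1) at -2.68 ± 0.41 by the probe used and -1.51 ± 0.19 by the other. The exception was Itgb3, an integrin subunit, at 0.63 ± 0.10 (SE, n = 15). By the F-test between extracts 12 of these 23 genes passed, which is 52.2%, against 7.26% of all tested genes and 5 of 25 genes of the epithelial junction list.

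**Figure D3:**
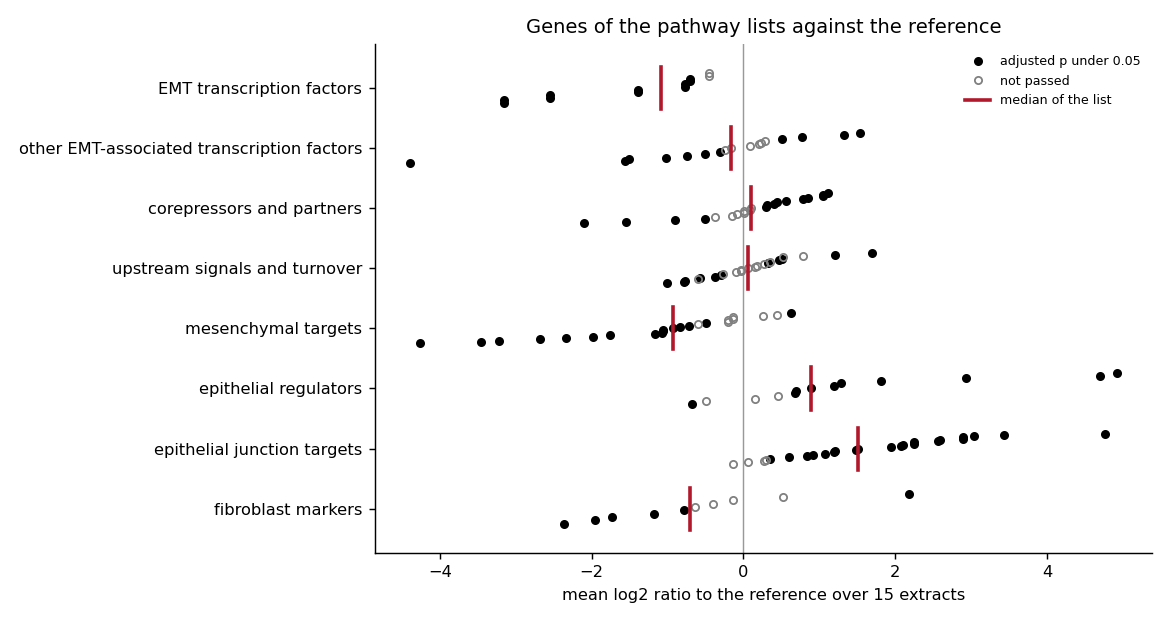
Mean log2 ratio to the reference over 15 extracts (x axis) of each gene in each list (rows); filled points passed limma at an adjusted p under 0.05, open points did not, and the red line is the median of the list. All 6 EMT transcription factors lie left of 0, with a median of -1.08; the mesenchymal targets have a median of -0.93, with Itgb3 past the threshold right of 0, and the junction targets a median of 1.51, with none past the threshold left of 0.

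Markers of other cell types were set beside these values. Of 10 fibroblast markers 5 passed on the opposite side and 1 on the other, with a median of -0.71; Pcolce and Dcn, which act on collagen, stood at -2.37 ± 0.21 and -1.96 ± 0.30, and Postn (periostin) at 2.18 ± 0.35 (SE, n = 15). Their list mean was highest and lowest in many of the same extracts as the factors, at 1.02 in 546-A, 0.78 in 550-A and 0.70 in 540-B at the high end and -1.64 in 548-A, -1.89 in 595-A and -2.23 in 579-D at the low end. Of these 10 markers 6 passed the F-test between extracts (60.0%). Macrophage markers had list means between 1.82 in 546-A and -0.08 in 579-D, with 6 of 9 passing on the Myc side and 1, the scavenger receptor gene Msr1 at -1.12 ± 0.15, on the opposite side (3 with each array's median taken off). Of 6 lymphocyte markers 3 passed, on the opposite side. Of 6 endothelial markers 5 passed on the Myc side and 1, Cd34 at -1.45 ± 0.17, on the opposite side. Of 6 pericyte and smooth muscle markers 2 passed on the Myc side and 1, smooth muscle actin (Acta2) at -1.85 ± 0.22, on the opposite side. Adipocyte markers passed on the Myc side in 1 of 3. All 8 mammary epithelial markers passed on the Myc side, with a median of 3.83, and the casein genes Csn3 and Csn2 were highest at 6.29 and 5.17. These are not all separate from the lists above. Krt8, Krt18, Epcam and Cldn3 are also on the junction list, and Elf5 is among the epithelial regulators. No skeletal muscle marker of 4 passed, though their mean was 3.32 in 546-A and 2.01 in 546-B, the highest of the extracts. The part of these cells in the levels of the factors was not tested.

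How the factors moved with each other over the 15 extracts was asked with 45 correlations, adjusted as one family. All 15 pairs of factors correlated positively and passed by permutation test after adjustment over the 45, with Pearson's r from 0.57 to 0.92 and a median of 0.80. The closest were Prrx1 and Zeb1 (r = 0.92, rho = 0.95, n = 15; permutation p adjusted 0.000225 and 0.000338, from a raw p of 1e-05 for r, the smallest these permutations can give) and Prrx1 and Snai2 (r = 0.90, rho = 0.93; the same adjusted p by permutation). The loosest were Snai2 and Twist1 (r = 0.57, rho = 0.60; permutation p adjusted 0.0316 and 0.0291) and Snai1 and Twist1 (r = 0.62, rho = 0.66; permutation p adjusted 0.0192 and 0.0150). With 1 value per code number (n = 10), 12 of 15 pairs passed with a median r of 0.82. Snai2 and Twist1 (r = 0.51, permutation p adjusted 0.171), Snai1 and Twist1 (r = 0.60, permutation p adjusted 0.0916) and Zeb2 and Snai2 (r = 0.56, permutation p adjusted 0.131) did not. Leaving out the 2 extracts farthest from the median kept 10 of 15 pairs past the threshold, with a median r of 0.63.

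The extract means of 2 genes come from the same arrays, and the correlations were lower across separate ones. With the first gene read from the arrays in channel 1 and the second from those in channel 2, which share only the RNA, 3 of 15 pairs passed with a median r of 0.45, and with the channels exchanged 3 of 15 with a median of 0.55. With both genes read on the same single array of each extract, 9 pairs passed in channel 1 (median r 0.58) and 10 in channel 2 (0.68). Prrx1 and Zeb1 was the one pair that passed in all of these, at r = 0.70 and 0.79 across separate arrays (permutation p adjusted 0.0138 and 0.0301). Snai1 and Twist1 gave -0.01 and 0.24. For comparison, the values of 1 gene on the paired arrays correlated at 0.11 for Snai1 and 0.75 for Prrx1, as given above.

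On the extract means Vim, Fn1 and the fibroblast markers correlated with the factors, and no correlation with Cdh1 or Epcam passed. Vim passed with 6 of 6 factors (r from 0.64 to 0.87), Fn1 with 6 of 6 (0.60 to 0.83; 5 of 6 with 1 value per code number, where Snai2 gave r = 0.61, permutation p adjusted 0.0916) and the mean of the 10 fibroblast markers with 6 of 6 (0.66 to 0.86). On separate arrays each of these passed with 5 of 6 factors when the factor was read in channel 1 and with none when it was read in channel 2, where the median r was 0.53 for Vim, 0.51 for Fn1 and 0.60 for the fibroblast markers. Cdh1 passed with none of the factors (r from 0.07 to 0.20) and Epcam with none (0.01 to 0.37). By limma's F-test between extracts Vim and Fn1 passed (adjusted p = 0.000438 and 1.95e-06), while Cdh1 and Epcam did not (0.12 and 0.468). Since Cdh1 and Epcam were not shown to differ between extracts beyond array noise, these correlations cannot decide whether they moved with the factors. Without 546-A and 548-A the r of Epcam ran from -0.41 to -0.02 and it passed with none. Array titles begin differently for 3 extracts, 550-A, 579-F and 595-A, though for 550-A on 1 array only. Without these 3 extracts Epcam passed with Snai1 (r = 0.69, permutation p adjusted 0.0171).

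**Figure D4:**
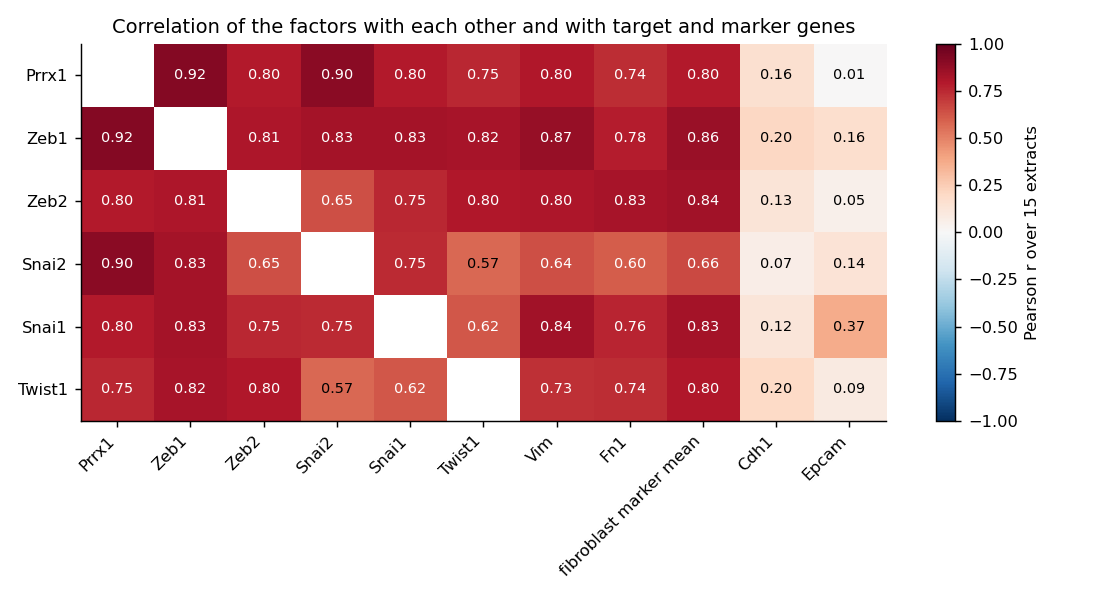
Pearson's r over 15 extract means between each factor (rows) and the other factors, Vim, Fn1, the mean of 10 fibroblast markers, Cdh1 and Epcam (columns). Values between the factors run from 0.57 to 0.92, and those with Cdh1 and Epcam stay between 0.01 and 0.37.

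**Figure D5:**
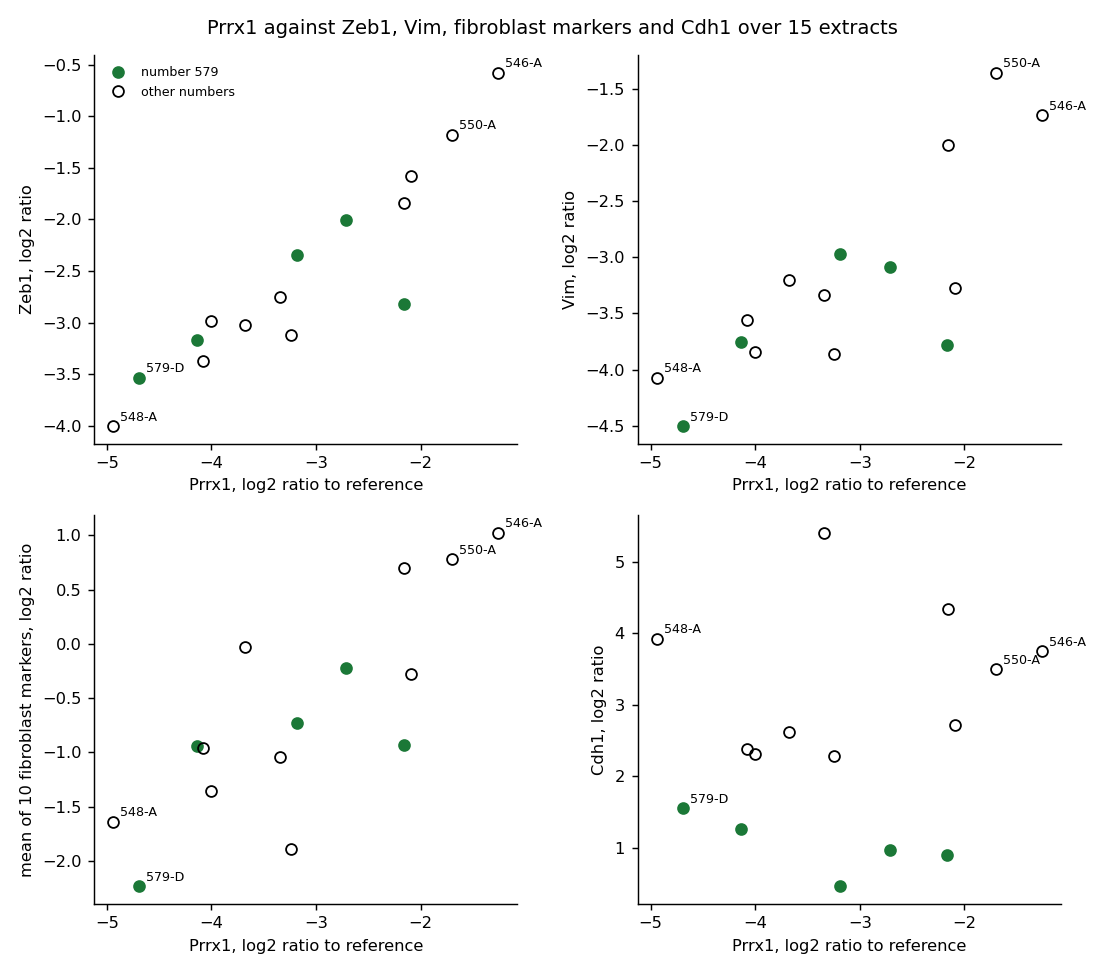
Extract means of Prrx1 (x axis, log2 ratio to the reference) against Zeb1, Vim, the mean of 10 fibroblast markers and Cdh1 (y axes, log2 ratio), with filled points for the 5 extracts of number 579 and open points for the 10 others. The first 3 panels climb from 548-A and 579-D toward 546-A and 550-A, and the correlation in the Cdh1 panel is weak (r = 0.16).

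Many other genes were also correlated with the factors over the extracts. Of the 9913 other tested genes, the share with an r at least as high as the factor's loosest fellow member was 1.31% for Zeb1, 1.83% for Prrx1, 4.72% for Zeb2, 5.66% for Twist1, 9.73% for Snai2 and 12.4% for Snai1. The median gene had an r between 0.09 and 0.18. The genes most like each factor, given without a test, were Mmp14 (r = 0.92), Tpm1 (0.92) and Ctsc (0.92) for Zeb1, which encode a membrane matrix protease, a tropomyosin and a lysosomal protease. For Zeb2 they were Pkp1 (0.92), Col6a1 (0.92) and Myh9 (0.89), a plakophilin, a collagen VI chain and a non-muscle myosin. Those of Snai1 were Procr (0.95), Msn (0.94) and Calu (0.94), the last 2 encoding moesin and calumenin. Snai2 and Prrx1 shared Id1 as the closest, at 0.95 and 0.93, followed by Pdpn and Car5b (both 0.90) for Snai2 and by Pappa and Ttyh2 (both 0.92) for Prrx1. Twist1 was closest to Tnfaip3 (0.89), Igfbp4 (0.88) and Loxl2 (0.88). Each r is over the 15 extract means, which share arrays.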

How the data were processed

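The deposited table holds log2 ratios of the 2 channels of each of 30 arrays, a scale read from the values. How the authors corrected background, normalized and scanned, and which genome build they used, was not given in the sources used here. The ratio's direction is unknown. A value of 16.61, the log2 of 100000, occurred 8839 times and was treated as missing with 95268 blanks. Arrays with the extract in channel 2 were turned, and both arrays of an extract were averaged. Probes with values on at least 24 arrays and in every extract entered limma 3.58.1 in R 4.3.3 (lmFit, eBayes, Benjamini-Hochberg over 12888 probes), against 0, between extracts with a dye term, and between groups of extracts; the script was tested on simulated data. The spread of the reference, a single RNA, is not part of any test. Correlations over extracts used 100000 permutations, adjusted over 45 relations, in Python 3.11.15. For genes with several probes, the one with most values was used, and among ties that with the largest mean absolute value. Named genes were up to 4 of each list, from the 2 largest means on each side among calls, plus Cdh1, Epcam, Vim, Cdh2, Fn1 and Myc, and the 3 genes most like each factor; Ocln and Rab25 were named for their promoters after their values were seen. The members and lists were chosen with earlier results of these data known. Probe names come from the platform annotation: 16874 probes had 1 symbol, and 16196 of those were found in RefSeq's gene table of GRCm38.p6. Promoter sequences are RefSeq's for that assembly. Alternatives were array medians subtracted, single channel orders, no dye term, other filters on missing and on dim probes, 1 value per code number, code number as a random block, 595-A placed with tumour progression, extracts left out, and, chosen after seeing the data, factors read on separate arrays and extracts with other array titles left out.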

Additional observations from a re-analysis of the deposited data

How the results depend on the processing

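Against the reference the count of factors past the threshold stayed at 5 or 6 when any 1 extract was left out (5756 to 6319 of all probes). On probes with values on all 30 arrays only, 3 factors were tested and 2 passed, with 4047 of 6801 probes; fewer probes enter there by construction. Snai1 passed also in channel 1 only (-0.86, limma adjusted p = 0.0243) and without 546-A and 548-A (-0.48, limma adjusted p = 0.0212). Twist1 turned to 0.20 in channel 2 only (limma adjusted p = 0.416). Between extracts the count of factors was 2 with array medians subtracted, 0 without a dye term (393 of all probes), 0 of 3 on probes of all 30 arrays, and 0 to 2 with 1 extract left out (568 to 1172 of all probes, the lowest without 546-A); without 546-A and 548-A 472 of all probes passed. For number 579 the count of factors and of probes was 0 in every alternative, and differences turned to 0.0398 for Zeb1, 0.11 for Snai1 and 0.19 for Twist1 in channel 2 only and to 2.5e-05 for Prrx1 without 579-D (leaving out 1 extract gave -0.63 to 2.5e-05). For tumour progression 0 probes passed with medians subtracted, in either channel alone, on probes of all arrays, without 546-A and 548-A and with 595-A added, and 0 to 4 with 1 extract left out. Zeb1 and Snai2 turned to -0.24 and -0.25 in channel 2 only, and with 1 extract left out ran from -0.44 to 1.40 and from -0.25 to 0.79, and Prrx1 from -0.45 to 1.53. Of 45 relations 33 passed; 20 did in channel 2 only, and 18 and 3 on separate arrays with the first measure in channel 1 and in channel 2. There Snai1 and Twist1 gave r = -0.0073. The cause of these changes was not tested.

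No paired analysis was possible because the labels give the compared extracts no replicate numbers in common. With code number as a random block (correlation 0.0995 between extracts of 1 number) the comparison of 579 with the others called 0 probes, as without it. With 1 value per code number, 5 factors passed against the reference and 29 of 45 relations passed.

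Each extract has 2 arrays at most, so array noise limits every statement about a single extract, and missing values were most frequent in 546-A and 548-A. Signal over background was not used here. The ratio's direction and the make-up of the reference are unknown, which limits the comparison with it to sides.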
